A study of Mus musculus with 2 samples.

Results

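The Mir130 and Mir301 family consists here of 4 microRNA (miRNA) genes of the mouse, Mir130a, Mir130b, Mir301 (also called Mir301a) and Mir301b. Members were taken by gene identifier, with no threshold on a measured value, and all 4 had a row among the 1973 miRNA genes of the deposited tables. The tissue was the heart of B6NCrl mice on postnatal day 0, without treatment or genetic change in the labels and with sex not collected. The 2 samples formed 1 group, with 1 whole heart in each. Replicate 1 came from pup 2 and replicate 2 from pup 3, and the labels place both pups with pregnant 1. With 1 group the data hold no comparison between conditions, and the spread between these pups does not cover other litters.

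A miRNA is cut from a hairpin precursor and guides repression of messenger RNAs that pair with its seed, the bases 2 to 8 from its 5′ end. The 3p arms of this family carry the same seed and so can pair with the same target sites. The family is known in blood vessels, where miR-130a promotes angiogenesis by repressing the homeobox genes Meox2 and Hoxa5, and in the lung circulation, where the family represses Pparg in pulmonary hypertension. In the heart, miR-130a is known to repress Zfpm2, the cofactor of GATA4 needed for cardiac development. No messenger RNA was measured here.

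The precursors are shown because the reads of a gene can come from either arm and because the members differ mostly outside the seed. Capitals mark the single run AGUGCAA in each. Sequences are from RefSeq on GRCm38.p6, 5′ to 3′.
Mir130a: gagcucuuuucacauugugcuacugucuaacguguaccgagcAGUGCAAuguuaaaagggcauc
Mir130b: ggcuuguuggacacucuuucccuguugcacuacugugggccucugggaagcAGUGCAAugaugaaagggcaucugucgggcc
Mir301: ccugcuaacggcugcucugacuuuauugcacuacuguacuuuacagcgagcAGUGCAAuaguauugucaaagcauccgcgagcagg
Mir301b: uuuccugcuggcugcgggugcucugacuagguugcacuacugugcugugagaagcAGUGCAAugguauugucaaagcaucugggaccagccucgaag

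The mature 3p arms of 3 members follow, with the seed in capitals, to show where the Mir130 branch and the Mir301 branch part. A mature miR-301b-3p was not used here.
miR-130a-3p: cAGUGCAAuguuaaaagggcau
miR-130b-3p: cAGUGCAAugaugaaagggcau
miR-301a-3p: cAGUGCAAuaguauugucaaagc

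Beyond the seed, the 3p arms fell into 2 pairs. Counted from 1 at the 5′ end of miR-130a-3p, the best ungapped match in the Mir130b precursor differed at 2 of 22 bases, U11A and A13G. Counted likewise, miR-301a-3p differed from its best match in the Mir301b precursor at 1 of 23 bases, A10G. Across the branches, miR-130a-3p differed from the Mir301 precursor at 10 bases and from the Mir301b precursor at 9. The 5p arms were less alike: miR-301a-5p differed from the Mir301b precursor at 3 of 22 bases and miR-130a-5p from the Mir130b precursor at 7.

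No member shared a stretch of 20 nt with another hairpin of the RefSeq table, on either strand, and the longest were 17 nt for Mir130a (with Mir6389) and 16 nt for each of the others. Reads that aligned to several places made up 36.6% of reads in replicate 1 and 37.1% in replicate 2 and were given to no gene. How many mismatches the alignment allowed is not given in the sources used here. Whether reads of Mir301 were counted on Mir301b, which differs at a single base of that arm, was not tested.

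The 4 genes lie at 3 loci, with positions on GRCm38. Mir130a occupies chromosome 2, 84741115 to 84741178, minus strand, and overlaps no other gene of GENCODE M21; the nearest are Gm19426, 990 nt away on the same strand, and Ypel4, 2459 nt away on the other. Mir301 occupies 87113004 to 87113089 on the plus strand of chromosome 11, where it is intronic to Ska2, which encodes a kinetochore protein. Mir130b, at chromosome 16, 17124061 to 17124142, and Mir301b, at 17124400 to 17124496, both on the minus strand, are separated by 257 nt and lie in an intron of the same gene, 2610318N02Rik. The annotated precursors measured 64 nt (Mir130a), 82 nt (Mir130b), 86 nt (Mir301) and 97 nt (Mir301b).

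On the annotated (sense) strand of all miRNA genes, replicate 1 totalled 2323450 counts and replicate 2 totalled 3487183. Levels are given as the share of these totals or as CPM, the counts scaled to a total of 1000000. The heart label was checked against 8 heart muscle miRNA genes, whose sum was 9.01% of sense counts in replicate 1 and 8.90% in replicate 2. Nearly all of it came from Mir208b, Mir208a and Mir499, which lie in myosin genes. The other 5, Mir133a-1, Mir1a-1, Mir133b, Mir1b and Mir133a-2, had 54 and 67 counts together. Reads aligned to several places were given to no gene, so these low counts do not show that the miRNAs were scarce. Whether such reads came from these 5 genes was not tested. The endothelial sum of 10.8% and 10.6% was nearly all Mir126a, with Mir221 at 0.0112% and 0.0130% and Mir222 at 0.00572% and 0.00568%. Smooth muscle genes, nearly all Mir143, summed to 9.83% and 10.2%. Erythroid genes summed to 0.0705% and 0.0608%, leukocyte genes to 0.0536% and 0.0498%, and the liver gene Mir122 had 0.00538% and 0.00473%. The 5 measured brain genes of the Mir9 and Mir124a families had 0 counts in both. Epithelial genes differed between the pups, with 11 of 11 genes above 0 in both and a sum of 0.0593% in replicate 1 and 0.200% in replicate 2.

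All 4 members had sense counts in both newborn hearts, and Mir130a carried most of these counts. Mir130a was read 36006 times on the sense strand in replicate 1 and 58168 times in replicate 2. Its share was 1.55% (exact Clopper-Pearson 95% interval 1.53% to 1.57%) in replicate 1 and 1.67% (1.65% to 1.68%) in replicate 2. Its mean share of 1.61% ± 0.0837 (SD, n = 2) placed it 17 among all miRNA genes, 19 in replicate 1 and 17 in replicate 2. The pups' intervals did not overlap, with replicate 2 the higher. These intervals reflect counting error alone. No source used here names molecular identifiers, and without them reads are not independent molecules and the intervals are too narrow.

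Mir130b, which lies beside Mir301b, was counted at 1763 CPM in replicate 1 and 1810 CPM in replicate 2, from 4097 and 6311 counts. Its mean share was 0.179% ± 0.00328 (SD, n = 2) at rank 56. For Mir301, the member in Ska2, counts were 3300 and 5082, or 1420 and 1457 CPM. Its mean share was 0.144% ± 0.00262 at rank 63. For both genes the intervals of the pups overlapped.

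Mir301b, the neighbour of Mir130b, was the lowest by far. With 99 counts in replicate 1 against 160 in replicate 2, it reached 42.6 and 45.9 CPM and a mean share of 0.00442% ± 0.000231 at rank 197. Its exact interval was wide, at 0.00346% to 0.00519% in replicate 1 and 0.00390% to 0.00536% in replicate 2, and the pups overlapped. All 4 members passed 2 CPM in both hearts, the limit that 16.6% of all miRNA genes passed (327 of 1973). The floor set by 3 counts was 1.29 CPM for replicate 1 and 0.860 CPM for replicate 2.

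**Figure D1:**
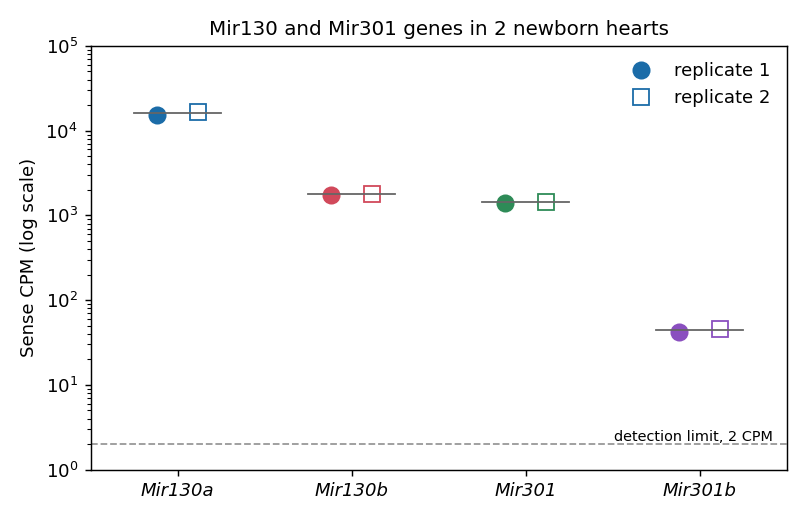
Sense CPM (log scale) of the 4 family members in each of the 2 hearts; filled circles are replicate 1, open squares replicate 2, grey lines the mean of both, and the dashed line is the detection limit of 2 CPM. Mir130a stands near 16089 CPM, Mir130b and Mir301 between 1420 and 1810 CPM, and Mir301b near 44.2 CPM.

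The order Mir130a, Mir130b, Mir301, Mir301b held in both hearts. Each gap between neighbours in this order exceeded the sum of their SDs, and the exact intervals were apart in both libraries. The narrowest gap, Mir130b over Mir301, was 347.7 CPM against summed SDs of 59.03 CPM. Divided by the annotated precursor length, the mean CPM per nt gave the same order, from 251.4 for Mir130a over 21.8 and 16.7 to 0.456 for Mir301b. That outcome was fixed in advance, since the precursors lengthen in that order, from 64 nt for Mir130a to 97 nt for Mir301b. The yield of reads per molecule can differ between miRNAs and was not measured, and the SD between hearts leaves out that error.

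Mir130a thus took 82.8% of the family's counts in replicate 1 and 83.4% in replicate 2. Mir130b took 9.42% and 9.05%, Mir301 took 7.59% and 7.29%, and Mir301b took 0.228% and 0.229%. The exact intervals of the Mir130a share of the family, 82.4% to 83.1% in replicate 1 and 83.2% to 83.7% in replicate 2, did not overlap. Mir130a exceeded the sum of the other 3 by 4.80-fold in replicate 1 and 5.03-fold in replicate 2.

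**Figure D2:**
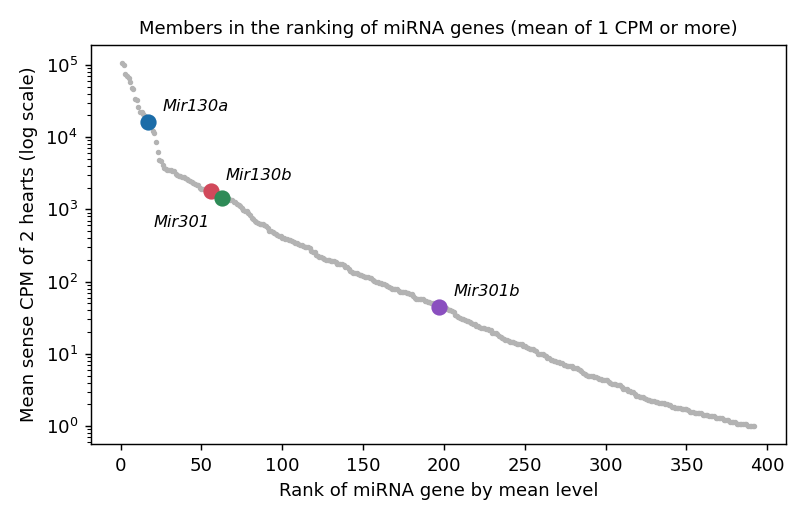
Mean sense CPM of the 2 hearts (log scale) against rank for all miRNA genes whose mean reached 1 CPM; grey points are all genes and coloured points the 4 members. Mir130a sits at rank 17, Mir130b at 56, Mir301 at 63 and Mir301b at 197.

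Ratios between members varied little from heart to heart. Mir130a over Mir130b, the pair with 2 differing bases in the 3p arm, was 8.79-fold in replicate 1 and 9.22-fold in replicate 2 (log2 ratio 3.17 ± 0.0486, SD, n = 2). Mir301 over Mir301b, the pair with 1 differing base, was 33.3-fold and 31.8-fold (log2 ratio 5.02 ± 0.0492). Genes with near-identical 3p arms thus stood far apart in counts, in the same direction in both hearts, although the counts do not separate the arms. Whether reads of Mir301 were counted on Mir301b, or reads of either gene were lost, was not tested, so the size of their ratio is uncertain.

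Mir130b over Mir301, which lie on different chromosomes, was 1.24-fold in each heart, with a log2 ratio of 0.31 in replicate 1 and 0.31 in replicate 2. That pair was added after the values were seen. Mir130a over Mir301 was 10.9-fold and 11.4-fold. These ratios were not tested: with 2 hearts, the smallest p that an exact two-sided permutation of signs allows is 0.5.

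Mir130b exceeded its genomic neighbour Mir301b by 41.4-fold in replicate 1 and 39.4-fold in replicate 2 (log2 ratio 5.34 ± 0.0490, SD, n = 2). For scale, all adjacent miRNA genes on 1 strand, at most 1000 nt apart and with 50 or more counts in each library, formed 38 pairs, a set defined after the members' values were known. Their median log2 ratio of the higher over the lower gene was 1.55, or 2.94-fold, and they ranged from 0.07 to 9.19. By the mean ratio, the genes were farther apart than Mir130b and Mir301b in 3 of the 38 pairs. Those were Mir99a over Mirlet7c-1, Mir487b over Mir539 and Mir23a over Mir27a. In replicate 2, Mir23a over Mir27a was not farther apart, at 5.29 against 5.30. Each of these 3 pairs holds a gene that shares 20 nt or more with another hairpin. The count of such a gene is uncertain because a read aligned to several places is given to no gene. In Mir487b over Mir539 only the higher gene shares such a stretch, so reads lost from it would lower that ratio, not raise it. In 17 of the 38 pairs neither gene shares such a stretch. Among these, a subset taken after the values were seen, the median was 1.68. Mir130b over Mir301b had the highest mean log2 ratio there, 5.34, with Mir322 over Mir503 next at 5.32. In replicate 2 Mir322 over Mir503 was the higher, at 5.35 against 5.30. Mir301b counts as sharing no such stretch, though miR-301a-3p differs from its precursor at 1 of 23 bases. Whether reads of that arm were lost or counted on Mir301b was not tested. The limit of 50 counts left out every pair whose lower gene had fewer, so wider ratios can be missing from both sets. The place of Mir130b over Mir301b holds only among the pairs that passed it. This is a description with no test, and pairs of 1 cluster are not independent.

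**Figure D3:**
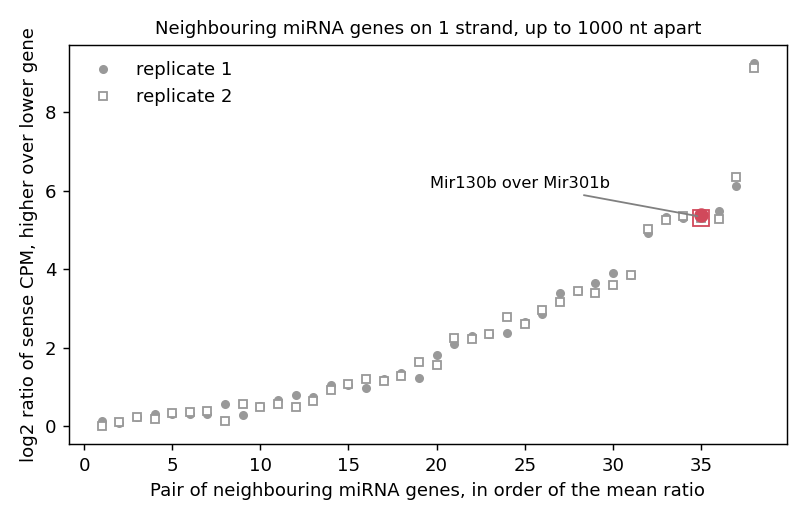
log2 ratio of sense CPM, higher over lower gene, for 38 pairs of adjacent miRNA genes on 1 strand at most 1000 nt apart, in order of the mean ratio; circles are replicate 1 and squares replicate 2. Only pairs with 50 or more counts for each gene in each library are shown. The red pair, Mir130b over Mir301b, lies at 5.37 and 5.30, with 3 pairs above it by the mean ratio of both hearts.

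The family differed little between the 2 hearts. All 615 genes with a sense count were compared by a two-sided exact binomial test, with library sizes scaled by TMM (trimmed mean of M-values). It compares 2 libraries at counting error only, not conditions. It called 14% of the genes (86 of 615; Benjamini-Hochberg adjusted p of 0.05 or less), with 8.94% higher and 5.04% lower in replicate 2. Of the 4 members 1 was called, Mir130a, which was higher in replicate 2 by a log2 ratio of 0.09 (exact 95% interval 0.07 to 0.11) or 1.06-fold, with an adjusted p = 3.57e-19 by the exact binomial test.

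No member passed both this test and a 1.5-fold difference, as 2.93% of the tested genes did. With edgeR's exact test at the common dispersion between the pups, Mir130a had an adjusted p = 1, at the same log2 ratio of 0.09. That dispersion, a coefficient of variation of 18.6%, comes from the same 2 libraries, so a 1.06-fold difference could not pass, and the lost call says nothing on stability. Among the 193 genes whose mean reached 50 CPM, the binomial test called 37.8%, the median absolute log2 ratio was 0.11, and 81 genes had a smaller absolute ratio than Mir130a. The difference of Mir130a lay near the middle of those of abundant genes.

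The other members did not pass. Mir130b had a log2 ratio of 0.02 (exact 95% interval -0.04 to 0.08; exact binomial test, adjusted p = 0.847). Mir301 had a log2 ratio of 0.02 (-0.04 to 0.08; exact binomial test, adjusted p = 0.886). Mir301b had the same size of ratio as Mir130a, 0.09, but with an interval of -0.28 to 0.47 (exact binomial test, adjusted p = 0.955), so a difference of the size seen for Mir130a was not detectable at its depth. Epithelial miRNAs summed to 0.0593% of counts in replicate 1 and 0.200% in replicate 2, and their part in the Mir130a difference was not tested.

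**Figure D4:**
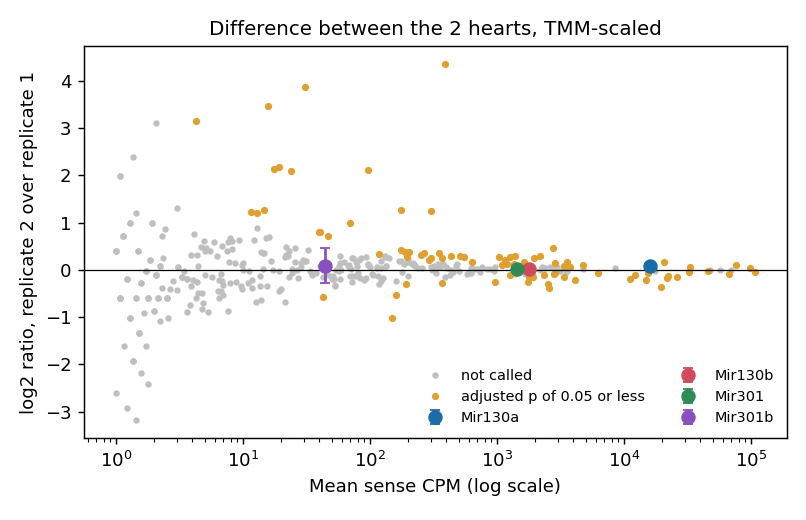
log2 ratio of replicate 2 over replicate 1 on TMM-scaled sense counts against mean sense CPM (log scale), for genes whose mean reached 1 CPM and that had counts in both hearts; orange points are genes with an adjusted p of 0.05 or less, and bars on the 4 members are exact 95% intervals. The members lie between 0.02 and 0.09, and the interval of Mir301b, from -0.28 to 0.47, is the widest of the 4.

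The family was read almost entirely from the annotated strand. On the opposite strand Mir130a had 1 count, in replicate 2, and the other 3 members had 0 in both. Over all miRNA genes that strand took 6.62% of assigned counts in replicate 1 and 6.67% in replicate 2. The low opposite count was not particular to the family. Of Mir148a, Mir148b, Mir152, Mir19a, Mir19b-1 and Mir19b-2, only Mir152 had any, with 2 counts over both hearts. A count of 0 allows up to 3 counts. For the members, counts of the sense strand and of both strands were therefore nearly the same number.

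Other mouse miRNAs carry the same seed. Of 1679 mature miRNAs in the RefSeq table, 7 (0.417%) have AGUGCAA at bases 2 to 8: the 3 above and the following 4, which are shown for how soon after the seed they depart from the members.
miR-130c: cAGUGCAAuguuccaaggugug
miR-6389: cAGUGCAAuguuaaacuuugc
miR-6341: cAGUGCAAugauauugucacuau
miR-721: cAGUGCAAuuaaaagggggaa

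Mir130c, Mir6389 and Mir6341 had 0 sense counts in both hearts, which allows levels up to those floors. Mir721 was not analysed here. The counts of genes with this seed that were measured therefore all came from the 4 members, whose sum was 43502 counts (1.87%) in replicate 1 and 69721 (2.00%) in replicate 2. Its mean was 1.94% ± 0.0898 (SD, n = 2), with replicate 2 higher, as for Mir130a.

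Families whose seed is offset by 1 base from this one had fewer sense counts, though the level of miR-19 is uncertain. The miR-148 and miR-152 family, which represses DNA methyltransferase genes among others, and the miR-19 family, a part of the growth-associated miR-17~92 cluster, are shown with their seeds in capitals.
miR-148a-3p: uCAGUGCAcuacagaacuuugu
miR-19a-3p: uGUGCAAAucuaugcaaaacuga

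Mir148a, Mir148b and Mir152 together had 4884 counts in replicate 1 and 7219 in replicate 2, or 0.210% and 0.207%. The Mir130 and Mir301 sum was 8.91-fold and 9.66-fold higher than theirs (log2 ratio 3.21 ± 0.0826, SD, n = 2). Mir148a led them at 1652 CPM ± 51.1, within the range of Mir130b and Mir301. The 3 Mir19 genes had 45 and 61 counts in all; Mir19b-1 and Mir19b-2 have the same mature miR-19b-3p, so a read of it can align to both and be given to neither, and this sum is uncertain.

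The genes closest in mean level were named as a measure of place in the ranking, by the difference in mean CPM over the 2 libraries. Around Mir130a were Mir351 and Mir30a above and Mir30d and Mir208a below, the nearest being Mir30d, whose difference of -727.6 CPM was smaller than the 837.02 CPM SD of Mir130a. Around Mir130b were Mir324, Mir214, Mir298 and Mir483, all within 50.3 CPM. Mir301 had Mir361 1.79 CPM above and Mir503 2.29 CPM below, both well within its SD of 26.2 CPM, and farther off Mir181d and Mir296. Mir301b lay among Mir182, Mir331, Mir302d and Mir672, all within 2.51 CPM. With 2 libraries, likeness of a pattern across samples could not be measured.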

How the data were processed

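Per the labels, the libraries came from total RNA with inserts under 30 nt, and the assembly was mm10. The annotation was GENCODE M4, per the text file deposited with each library. The authors deposited raw counts of reads for each miRNA gene in separate columns for sense, opposite and summed strands. For the aligner, counter, trimming and treatment of mismatches, the entry is: not given in the sources used here. The 4 summary rows were kept out of library sizes. Sense counts made up 46.0% of 5052766 reads in replicate 1 and 46.9% of 7441784 in replicate 2. Arms of a precursor are not separated in the counts. Members, gene lists and the tests were chosen with earlier results of these data known.

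Identifiers were matched to GENCODE M21, on the same assembly (1894 of 1973; the other 79 had 0 counts). RefSeq positions of all 4 precursors equalled those of GENCODE. CPM was taken over all sense counts on genes. The exact binomial test used effective sizes from edgeR 4.0.16 (TMM) with scipy 1.17.1, adjusted over all tested genes, and edgeR's common dispersion came from the 298 genes counted at least 10 times in each heart. The test was checked on simulated data drawn with counting error alone, so the check does not cover variation between hearts. With changes in both directions few unchanged genes were called, which follows from the test's own assumption. With all changes in 1 direction many abundant unchanged genes were called. The calls of the test on abundant genes can therefore be sensitive to the scaling where changes go in 1 direction. For Mir130a in these hearts, the log2 ratio was 0.09 with TMM, 0.11 with total counts and 0.10 with DESeq2 size factors. Named genes were the members, genes of the same or an offset seed, and genomic neighbours within 10 kb. The 2 genes above and 2 below each member in mean CPM were named too. Genes of the neighbouring pairs farther apart than Mir130b and Mir301b, and the pair Mir322 over Mir503, were named after their values were seen. Nothing in the labels says more on how the libraries were prepared for each pup, so animal and library cannot be told apart.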

Additional observations from a re-analysis of the deposited data

How the results depend on the processing

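The order of the 4 members was the same on both strands and per annotated nt. Neither setting could change it, because precursor length rose as level fell and no member had more than 1 opposite-strand count in a library. The log2 ratios of the members between the pups kept their sign under total counts, DESeq2 size factors, a minimum of 10 counts and both strands. They also kept it with a pseudocount of 1 CPM and with edgeR's exact test. Taken over both strands, the mean levels were 1.502% (Mir130a), 0.167% (Mir130b), 0.134% (Mir301) and 0.00413% (Mir301b), and as shares of all reads 0.747%, 0.0829%, 0.0668% and 0.00205%; both alternatives enlarge the denominator. Ranks over both strands were 59 for Mir130b, 66 for Mir301 and 209 for Mir301b. Leaving out 1 replicate at a time, ranks were 17 to 19 (Mir130a), 56 to 58 (Mir130b), 64 to 65 (Mir301) and 197 to 199 (Mir301b). The edgeR exact test with the common dispersion called 7 genes, 7 higher and 0 lower, against 86 (55 and 31) by the binomial test; at an unadjusted p under 0.05 it had 18 genes, 2 of them lower. Mir130a, at a log2 ratio of 0.090, was not called there (edgeR, adjusted p = 1); with 1 library a side and a dispersion from the same 2 libraries it could not be, so this says nothing on stability. Its adjusted p in the exact binomial test stayed between 1.09e-26 and 3.57e-19 under the other alternatives, with log2 ratios of 0.09 to 0.11. No paired analysis was possible because there is 1 group. Depth limits Mir301b most, since 99 and 160 counts leave a counting error of 10.1% and 7.91%.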
